A study of Mus musculus with 26 samples.

Results

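The 10 chemokine genes described here are Cxcl1, Cxcl2, Cxcl3, Cxcl9, Cxcl10, Cxcl13, Cxcl14, Cxcl16, Ccl6 and Ccl9. They were chosen by gene name as chemokines of myeloid cells and their surroundings that are not among the inflammatory CC chemokines for which ACKR2 is known, and all 10 were present among the 50104 genes listed for all 3 cell types. RNA was sequenced from sorted cells of untreated female wild-type (WT) C57BL/6J and ACKR2-/- mice, which lack the atypical chemokine receptor ACKR2 in every cell. Bone marrow monocytes and small peritoneal macrophages (SPMs) were each measured in 4 WT and 4 ACKR2-/- samples, and lung macrophages without surface MHC class II in 5 WT and 5 ACKR2-/- samples. Mice were 8 to 10 weeks old unless stated otherwise. Each monocyte or SPM sample pooled cells of 5 mice, while for lung samples the number of mice was not given in the sources used here. WT mice were bought and ACKR2-/- mice were bred as a colony of their own, so genotype and colony cannot be told apart. Binding of the chemokines to ACKR2 was not measured in these samples.

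Chemokines are small secreted proteins that guide leukocytes through G protein-coupled receptors. Cxcl1, Cxcl2 and Cxcl3 are related neighbours that attract neutrophils through CXCR2 and are classical early targets of NF-kB. Cxcl9 and Cxcl10 are interferon-induced ligands of CXCR3 on activated T and NK cells. Cxcl16 is made as a membrane protein, is shed by the proteases ADAM10 and ADAM17 and binds CXCR6. Cxcl13 is the CXCR5 ligand that organises B cells, and is made by macrophages of the body cavities. Cxcl14 is a constitutive chemokine of epithelia and stroma. Ccl6 and Ccl9 are rodent CC chemokines of the CCR1 family that mature myeloid cells make without stimulation. ACKR2 itself takes up and degrades inflammatory CC chemokines without signalling to G proteins.

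Between 12781144 and 35400034 reads per sample were assigned to genes. Values below are counts-per-million (CPM) of reads on tested genes, scaled within each cell type, and 3 reads corresponded to at most 0.264 CPM in any sample. CPM of different cell types are therefore not on 1 scale, and log2 differences between cell types come from a fit scaled over all 26 samples. Ackr2 had 5 to 9 reads in each WT SPM sample and 0 in each ACKR2-/- SPM sample. Only 1 WT monocyte sample had Ackr2 reads, 2 in all, so this gene checked no label in monocytes. In lung macrophages Ackr2 had 150 to 469 reads in 4 WT samples and 7 to 50 in the ACKR2-/- samples, but WT replicate 5 had 0, which goes against its label. Some libraries stood apart. WT lung replicate 3 had summed MHC class II transcripts of 96644 CPM against 3744 to 9372 in the other 9 lung libraries, although the gate took MHC class II negative cells. ACKR2-/- SPM replicates 1 and 4 differed from the other 6 SPM libraries in many genes, as given below. Epithelial markers, with Sftpc and Scgb1a1 among them, summed to between 232 and 16742 CPM in the lung libraries and to at most 5.35 CPM in the others. Summed monocyte markers ranged from 4982 to 9479 CPM in monocytes, and summed SPM markers from 87907 to 157622 CPM in SPMs. Summed lung interstitial macrophage markers ranged from 1260 to 13051 CPM in lung macrophages, and this list reached 9003 to 16864 CPM in SPMs. In ACKR2-/- lung samples Csf1r, which is also on the monocyte list, was at 913 to 2278 CPM. Other genes of the interstitial list were lower there, with C1qb at 88.9 to 400, Mrc1 at 9.21 to 35.9 and Folr2 at 4.73 to 22.8 CPM. Neutrophil markers reached a sum of 88053 CPM in monocytes, but not evenly. In WT monocytes S100a8, S100a9, Ngp and Camp reached 22329, 26812, 24952 and 13763 CPM, while Ly6g and Retnlg reached only 18.2 and 13.7 CPM. In such bulk samples, fewer cells of a type and less RNA per cell cannot be told apart.

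Because Cxcl1, Cxcl2 and Cxcl3 were all higher in lung macrophages than in the other cell types, the sequences before their starts are shown, with those of the interferon-induced Cxcl9 and Cxcl10, whose levels differed between samples of 1 group. RefSeq promoter windows (GRCm38.p6) were found for 9 of the 10 genes. The 250 bases before each start were searched on both strands for GGNNTTTCC (kappaB, the NF-kB site), TTCNNTTTC (the core of the interferon-stimulated response element, ISRE) and TTCNNNGAA (the interferon-gamma activated site, GAS), where N is any base. Capitals mark matches of any of these. Each stretch runs in the direction of its gene and stops before the GENCODE M21 gene. The stretches are chr5:90890995-90891240 on the plus strand for Cxcl1, chr5:90903649-90903870 on the plus strand for Cxcl2, chr5:90785851-90786100 on the plus strand for Cxcl3, chr5:92328080-92328329 on the minus strand for Cxcl9 and chr5:92348890-92349139 on the minus strand for Cxcl10.
Cxcl1: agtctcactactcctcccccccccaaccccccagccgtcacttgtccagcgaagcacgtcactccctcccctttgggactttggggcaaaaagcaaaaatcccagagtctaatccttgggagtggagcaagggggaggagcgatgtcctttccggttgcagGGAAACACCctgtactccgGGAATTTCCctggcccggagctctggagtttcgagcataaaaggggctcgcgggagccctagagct
Cxcl2: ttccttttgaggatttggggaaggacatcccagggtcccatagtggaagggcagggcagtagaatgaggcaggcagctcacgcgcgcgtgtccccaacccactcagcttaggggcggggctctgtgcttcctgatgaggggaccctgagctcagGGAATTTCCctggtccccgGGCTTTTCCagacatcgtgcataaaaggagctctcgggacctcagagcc
Cxcl3: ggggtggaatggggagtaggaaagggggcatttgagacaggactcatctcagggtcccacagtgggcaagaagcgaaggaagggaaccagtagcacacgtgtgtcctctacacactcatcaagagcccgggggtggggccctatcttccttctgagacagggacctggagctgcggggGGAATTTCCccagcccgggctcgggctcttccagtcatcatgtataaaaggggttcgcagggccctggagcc
Cxcl9: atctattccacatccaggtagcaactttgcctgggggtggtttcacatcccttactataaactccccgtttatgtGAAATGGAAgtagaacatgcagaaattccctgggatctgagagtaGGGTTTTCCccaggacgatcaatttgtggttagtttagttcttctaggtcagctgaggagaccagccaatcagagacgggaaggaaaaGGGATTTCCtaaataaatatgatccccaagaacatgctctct
Cxcl10: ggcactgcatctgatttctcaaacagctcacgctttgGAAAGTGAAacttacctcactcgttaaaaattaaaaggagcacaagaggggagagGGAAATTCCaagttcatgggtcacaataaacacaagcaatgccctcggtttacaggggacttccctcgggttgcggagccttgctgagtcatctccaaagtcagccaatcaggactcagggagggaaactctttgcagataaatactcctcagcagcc
The same letters, GGAATTTCC, stood 62 to 70 bases before the RefSeq start of Cxcl1, 88 to 96 bases before that of Cxcl2 and 64 to 72 bases before that of Cxcl3. Cxcl1 and Cxcl2 each held a second kappaB match within 20 bases of the first, GGAAACACC on the opposite strand for Cxcl1 and GGCTTTTCC for Cxcl2. Cxcl9 held GGGTTTTCC and GGGATTTCC and Cxcl10 held GGAAATTCC. Both interferon-induced genes also held 1 ISRE match on the opposite strand, GAAATGGAA for Cxcl9 and GAAAGTGAA for Cxcl10. In all, 6 of 9 windows held a kappaB match (those shown and that of Ccl9), against 4.93% of all 32851 windows. An ISRE match was found in 3 windows (Cxcl9, Cxcl10 and Cxcl14, 7.13% of all windows) and a GAS match in 1 (Cxcl14, 7.02% of all windows). No matches of different motifs overlapped in these windows. The motif letters were set after a first search with longer forms, and the members were chosen with earlier results known. The shares are therefore no test of enrichment. The matches describe letters only, and binding was not measured.

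**Figure D1:**
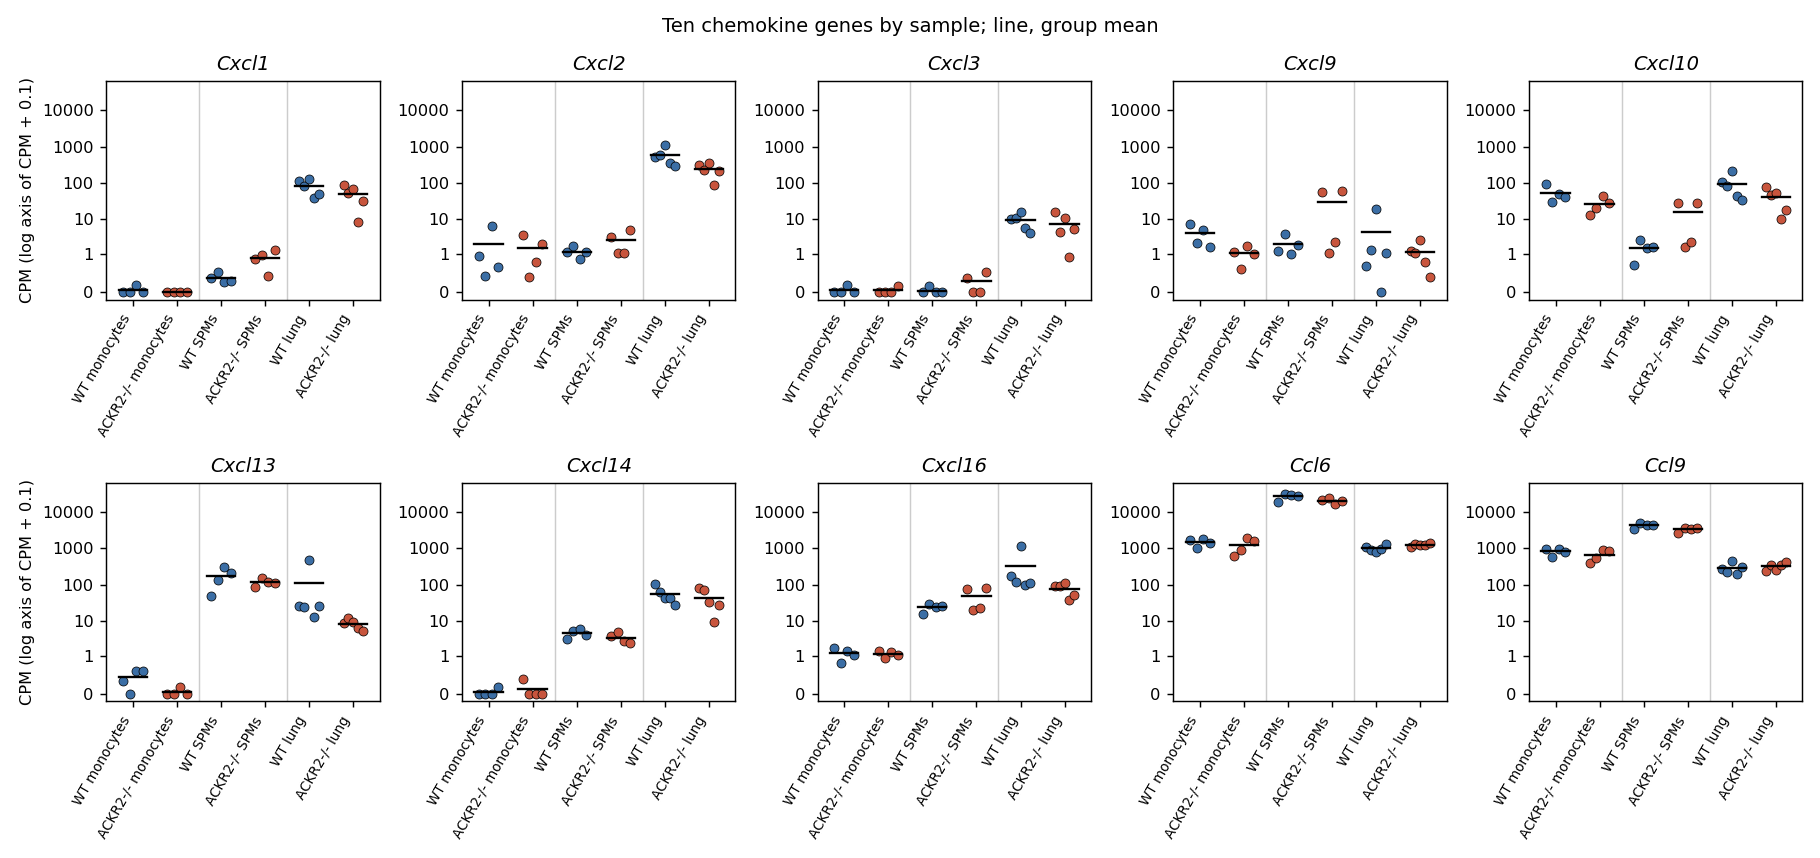
CPM of each of the 10 genes in all 26 samples (points; blue, WT; red, ACKR2-/-), on a log axis of CPM plus 0.1, with group means as lines. Ccl6 and Ccl9 are highest in SPMs, Cxcl1, Cxcl2 and Cxcl3 are highest in lung macrophages, and Cxcl9 scatters widely in ACKR2-/- SPMs (1.14 to 61.2 CPM) and in WT lung macrophages (0 to 19.5 CPM).

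How the 10 genes were distributed over the cell types was asked first in WT mice. Levels were compared between genes as RPKM, which is CPM scaled over all samples together, divided by the listed gene length in kilobases. The CPM values given in the text are scaled within each cell type instead, so the RPKM cannot be derived from them. In WT monocytes the order was Ccl6 (640 ± 134 RPKM, SD, n = 4), Ccl9 (211 ± 45.7) and Cxcl10 (18.7 ± 9.63), whose ranges did not overlap, and every other member averaged at most 1.06 RPKM. In WT SPMs Ccl6 stood at 26220 ± 6558 RPKM, Ccl9 at 2490 ± 479, Cxcl13 at 268 ± 169, Cxcl16 at 14.2 ± 3.97 and Cxcl14 at 4.52 ± 1.42 (SD, n = 4), again with no overlap between neighbours. The ranges of Cxcl10, Cxcl9 and Cxcl2 overlapped at 1.03 to 1.27 RPKM on average. WT lung macrophages had a flatter order, with Ccl6 at 438 ± 102 RPKM, Cxcl2 at 215 ± 119, Cxcl16 at 81.9 ± 110, Cxcl13 at 73.6 ± 130 and Ccl9 at 73.0 ± 23.2 (SD, n = 5). Cxcl1, Cxcl10 and Cxcl14 followed at 24.0 to 34.4 RPKM, all neighbours down to Cxcl14 overlapped, and Cxcl3 and Cxcl9 were at 2.08 and 1.12 RPKM. In ACKR2-/- samples the leading 3 genes of WT led again in monocytes (Ccl6 at 536 ± 255, Ccl9 at 171 ± 66.1 and Cxcl10 at 9.16 ± 4.56 RPKM, SD, n = 4) and in SPMs (Ccl6 at 20991 ± 3498, Ccl9 at 1996 ± 295 and Cxcl13 at 187 ± 42.1 RPKM). Ccl6 led in ACKR2-/- lung macrophages as well, at 542 ± 42.3 RPKM (SD, n = 5), followed by Cxcl2 at 88.5 ± 36.1 and Ccl9 at 82.4 ± 16.8 RPKM, whose ranges overlapped. Cxcl13, the fourth in WT lung macrophages by mean, was the eighth there at 5.76 ± 1.94 RPKM.

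Ccl6 and Ccl9 rose from monocytes to SPMs. Ccl6 was at 1645, 1043, 1769 and 1429 CPM in the WT monocyte samples and at 18329, 30374, 29493 and 28082 CPM in the WT SPM samples, so the groups lay far apart. In a fit over all 26 samples the log2 difference was 5.36 (SE 0.37, adjusted p = 1.46e-11, edgeR quasi-likelihood test with Benjamini-Hochberg adjustment). Ccl9 differed by 3.56 (SE 0.31, adjusted p = 1.21e-09) in the same direction. In WT lung macrophages both were far below SPMs, by a log2 difference of -5.90 (SE 0.34, adjusted p = 4.43e-13) for Ccl6 and -5.09 (SE 0.30, adjusted p = 8.07e-13) for Ccl9. Against monocytes, Ccl9 was lower in lung macrophages (-1.53, SE 0.27, adjusted p = 2.26e-05), while the difference of Ccl6 (-0.55, SE 0.29) missed the threshold at an adjusted p of 0.0956.

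The CXCR2 ligands Cxcl1, Cxcl2 and Cxcl3 were found mainly in lung macrophages. Cxcl2 was at 519, 585, 1136, 352 and 294 CPM in the 5 WT lung samples, against 1.20, 1.76, 0.704 and 1.18 CPM in WT SPMs and 0.912, 0.187, 6.57 and 0.392 CPM in WT monocytes. Every lung sample was thus above every sample of the other types. Cxcl2 differed between lung macrophages and SPMs by 7.67 on the log2 scale (SE 0.91, adjusted p = 8.36e-08), Cxcl1 by 7.88 (SE 0.77, adjusted p = 9.47e-09) and Cxcl3 by 8.03 (SE 1.18, adjusted p = 2.17e-06), with only 12 Cxcl1 reads and 1 Cxcl3 read in all WT SPM samples together. Monocytes held 1 read of each of Cxcl1 and Cxcl3 in the 4 WT samples. The 8947 Cxcl1 reads and 1027 Cxcl3 reads of WT lung macrophages then give scaled ratios to monocytes of 5370 (95% exact interval 964 to 212145, counting error only) and 616 (110 to 24372). The list of NF-kB and early activation genes stood high in lung macrophages too. All 13 genes of that list were higher in WT lung macrophages than in WT SPMs and than in WT monocytes, with median log2 differences of 4.57 and 4.32, where 0.41 and 0.34 were the medians over all 17792 genes. Tnf (6.46, SE 0.51), Tnfaip3 (6.23, SE 0.34) and the kappaB inhibitor Nfkbia (2.63, SE 0.25) were among them in the contrast with SPMs. Lung tissue and peritoneal fluid were handled differently before sorting, and the part of handling in these differences cannot be told apart from that of cell type.

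Of the CXCR3 ligands, Cxcl10 was lowest in SPMs. It was at 95.3, 30.1, 49.9 and 40.8 CPM in WT monocytes, 0.479, 2.68, 1.58 and 1.66 CPM in WT SPMs and 107, 83.6, 213, 44.9 and 34.0 CPM in WT lung macrophages, and SPMs overlapped with neither of the others. The log2 difference was -3.88 (SE 0.85, adjusted p = 0.000561) between SPMs and monocytes and 4.70 (SE 0.86, adjusted p = 4.36e-05) between lung macrophages and SPMs. Cxcl9 was scarce in all WT groups, with means of 1.06, 1.22 and 1.12 RPKM in monocytes, SPMs and lung macrophages. No WT contrast of it passed the threshold with all samples (adjusted p = 0.918 to 0.961 in edgeR). Its lung mean rested on WT replicate 3 at 19.5 CPM, as the other 4 libraries held 0 to 1.38 CPM. Without that library the log2 difference of Cxcl9 to SPMs moved from -0.15 to -2.69 and was called (adjusted p = 0.0242 in edgeR).

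Cxcl16 and Cxcl13 both rose from monocytes to the macrophages. Cxcl16 was at 0.622 to 1.76 CPM in WT monocytes, 15.9 to 28.9 CPM in WT SPMs and 95.9 to 1131 CPM in WT lung macrophages, with no overlap between cell types. Its log2 differences were 5.46 (SE 0.74, adjusted p = 1.48e-06) from monocytes to SPMs and 2.53 (SE 0.61, adjusted p = 0.000802) from SPMs to lung macrophages, and the latter was 1.20 without lung replicate 3. In ACKR2-/- samples Cxcl16 was not called between SPMs and lung macrophages (adjusted p = 0.357 in edgeR). The difference there had the other sign, at -0.85 to -0.24 with a sample left out. Cxcl13 had 14 reads in the 4 WT monocyte samples and 12603 in the SPM samples, a scaled ratio of 1730 (95% exact interval 1030 to 3165, counting error only). It was at 48.2, 132, 300.2 and 208 CPM in WT SPMs and at 25.7, 25.2, 472, 13 and 26.4 CPM in WT lung macrophages, where replicate 3 stood far above the others. Scaled over all samples, Cxcl13 ranged from 67.4 to 461 RPKM in WT SPMs and from 8.27 to 306 RPKM in WT lung macrophages. The log2 difference between lung macrophages and SPMs was -1.86 (SE 0.71, adjusted p = 0.025). It was -4.11 without lung replicate 3, and the call was lost without any one of the other 4 lung replicates or without SPM replicate 3 or 4. Cxcl14 had 1 read in WT monocytes, 3.07 to 6.16 CPM in WT SPMs and 27.0 to 104 CPM in WT lung macrophages, a log2 difference of 2.42 (SE 0.50, adjusted p = 0.00019) between the last.

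In counts, 6 of the 10 genes were higher and 1 lower in WT SPMs than in WT monocytes (called where the log2 difference exceeded 0.5 in size and the adjusted p was under 0.05), where 21.8% and 20.1% of all 17792 genes passed. In WT lung macrophages 6 were higher and 1 lower than in monocytes (39.5% and 24.4% of all genes), and 6 were higher and 3 lower than in SPMs (39.1% and 23.2%). The ACKR2-/- groups gave 9 higher and 0 lower for SPMs against monocytes (20.8% and 19.5%), 6 higher and 1 lower for lung macrophages against monocytes (37.6% and 24.3%) and 4 higher and 4 lower for lung macrophages against SPMs (38.9% and 24.7%). These contrasts share their groups. The genes called for ACKR2-/- and not for WT SPMs against monocytes were Cxcl2 (1.96, SE 0.76 on the log2 scale), Cxcl9 (6.04, SE 1.36) and Cxcl3 (14 reads against 1, a scaled ratio of 19.1 with a 95% exact interval of 2.91 to 809). Without ACKR2-/- SPM replicates 1 and 4 all 3 lost the call, with Cxcl2 at 0.73, Cxcl9 at 1.91 and Cxcl3 turned to -1.56, and Cxcl10 was called lower (-2.53). For ACKR2-/- lung macrophages against SPMs, Cxcl9 then lost its call as lower (-1.79) and Cxcl10 was called higher (3.19, from 0.21). In WT SPMs against monocytes, the call of Cxcl1 rested on 12 reads against 1 and was kept in 25 of 32 alternatives, and Cxcl2 was called only without WT monocyte replicate 3 (2.48, adjusted p = 0.0188 in edgeR). Scaling by another method moved the median log2 difference of all genes from 0.00 to 0.16 for WT SPMs against monocytes, and by at most 0.10 in the other WT contrasts.

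In monocytes the question was whether loss of ACKR2 changed these transcripts before the cells entered tissues. None of the 6 genes that passed the count filter was called, where 1.27% of 13246 tested genes were, although all 6 estimates were below 0 (median log2 fold change -0.31, against 0.00 for all genes) and 2 had an unadjusted p under 0.05 (17% of all genes). Cxcl9 was at 7.62, 2.18, 5.01 and 1.68 CPM in WT and 1.18, 0.342, 1.79 and 1.01 CPM in ACKR2-/- monocytes, so that only the highest ACKR2-/- and the lowest WT sample crossed. Its means were 4.12 ± 2.76 and 1.08 ± 0.595 CPM (SD, n = 4 each). The log2 fold change of Cxcl9 was -1.91 (SE 0.54) with an unadjusted p of 0.00404 and an adjusted p of 0.11 in edgeR, while DESeq2 gave an adjusted p of 0.0128. Over all alternatives its adjusted p ranged from 0.0128 to 0.121, and up to 0.334 with a sample left out.

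Cxcl10, the other CXCR3 ligand, was at 95.3, 30.1, 49.9 and 40.8 CPM in WT and 13.4, 20.7, 43.9 and 28.9 CPM in ACKR2-/- monocytes. The ranges overlapped and the log2 fold change of -1.01 (SE 0.38) had an adjusted p of 0.209 in edgeR. Ccl6 averaged 1471 ± 318 CPM in WT and 1245 ± 588 CPM in ACKR2-/- monocytes (SD, n = 4), and Ccl9 823 ± 185 and 675 ± 258 CPM. In both, ACKR2-/- replicate 1 was the lowest of all 8 samples, at 607 and 388 CPM. Cxcl2 and Cxcl16 stayed at or under 6.57 and 1.76 CPM in every monocyte sample, and Cxcl1, Cxcl3, Cxcl13 and Cxcl14 were at or under 0.336 CPM, too low for the test.

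The receptors of these ligands did differ in monocytes. Of 8 receptor genes 4 were tested, and 3 were higher in ACKR2-/- cells. Ccr1, a receptor of Ccl6 and Ccl9, was at 69.9 to 87.9 CPM in WT and 155 to 226 CPM in ACKR2-/- monocytes (log2 fold change 1.21, SE 0.15, adjusted p = 0.00129 in edgeR). Cxcr6, the Cxcl16 receptor, was at 0.261 to 0.871 and 4.78 to 10.5 CPM (3.83, SE 0.38, adjusted p = 0.000313 in edgeR), and Cxcr3 at 3.62 to 4.66 and 6.15 to 14.2 CPM (1.34, SE 0.27, adjusted p = 0.0364 in edgeR). The neutrophil receptor Cxcr2 was not called (-1.16, SE 0.32, adjusted p = 0.108 in edgeR). The T cell markers moved with Cxcr3 and Cxcr6: all 7 were called higher, and their sum was 3.45 to 4.48 CPM in WT and 63.6 to 114 CPM in ACKR2-/- monocytes. Of the 5 NK cell markers only Nkg7 was high enough to be tested, and it was not called (619 to 1175 and 371 to 1508 CPM). Gzma (0 to 0.0556 and 0.171 to 0.43 CPM) and Prf1 (0 to 0.0622 and 0.342 to 0.85 CPM) were higher in every ACKR2-/- sample at a level of few reads, and Ncr1 was at 0 throughout. Of the 6 dendritic cell markers 5 were tested and 1 was called higher, Siglech, at 3.56 to 5.26 and 17.2 to 78.6 CPM. Xcr1 was not called, at 0.435 to 0.946 and 1.29 to 2.0 CPM. The part of other cells in the receptor differences was not tested, and colony cannot be told apart from loss of ACKR2 in them. Of the 11 interferon pathway genes and the 11 tested NF-kB and early activation genes, 0 were called, with 2 and 4 at an unadjusted p under 0.05. Of 14 other chemokine genes 4 were tested and 1 was called, the lymphocyte chemokine Xcl1 (4.64, SE 0.78, adjusted p = 0.0132 in edgeR).

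**Figure D2:**
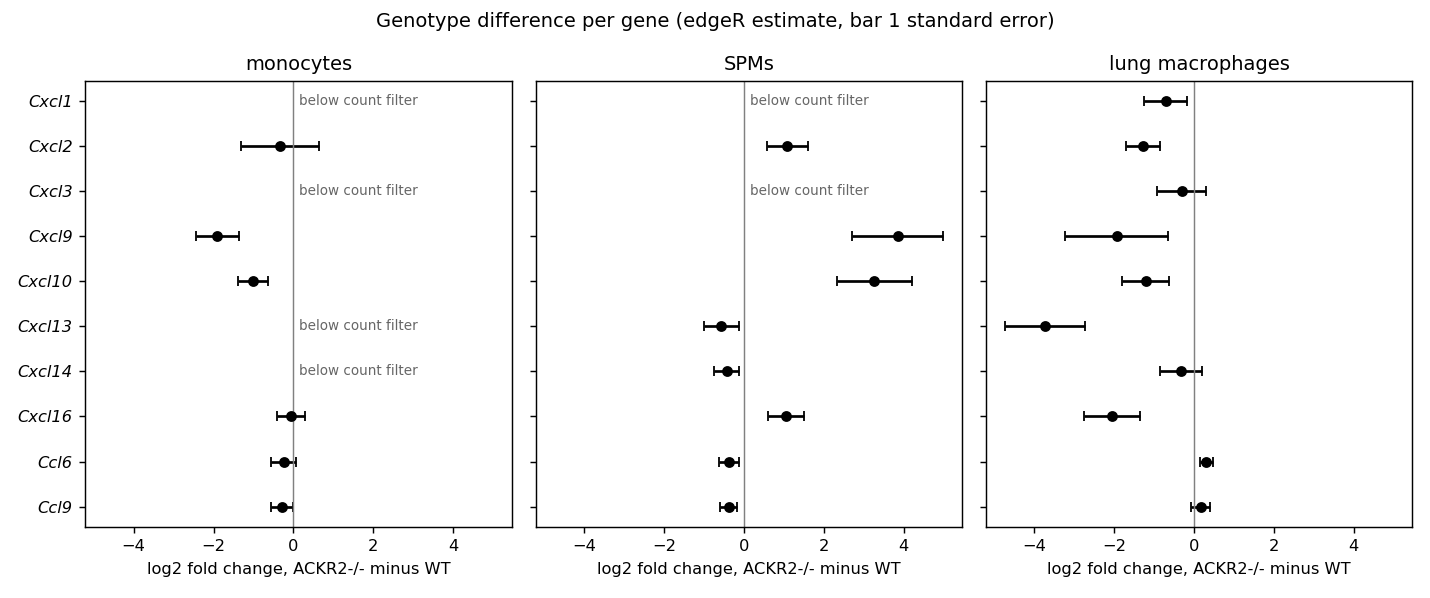
Log2 fold change of each gene between ACKR2-/- and WT samples in monocytes, SPMs and lung macrophages, as the edgeR estimate with 1 standard error. Cxcl9 and Cxcl10 lie below 0 in monocytes (-1.91 and -1.01), above 0 in SPMs (3.85 and 3.27) and below 0 in lung macrophages (-1.93 and -1.21), and none of the estimates passed the adjusted threshold.

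In SPMs none of the 8 genes in the fit was called, where 0.0462% of 12997 tested genes were, and 3 had an unadjusted p under 0.05 (5.46% of all genes). The largest estimates were those of the interferon-induced Cxcl9 and Cxcl10, and they came from some samples only. Cxcl9 was at 1.25, 4.03, 1.06 and 1.92 CPM in WT and at 56.5, 1.14, 2.27 and 61.2 CPM in ACKR2-/- SPMs. Cxcl10 was at 0.479, 2.68, 1.58 and 1.66 CPM in WT and at 29.2, 1.61, 2.27 and 29.0 CPM in ACKR2-/- SPMs. In both genes ACKR2-/- replicates 1 and 4 lay above the other 6 libraries and replicates 2 and 3 lay within the WT range. Cxcl16 followed the same samples, with 15.9, 28.9, 24.8 and 26.9 CPM in WT and 75.4, 20.3, 22.8 and 81.0 CPM in ACKR2-/- SPMs. Cxcl2 did so at a lower level, with 1.20, 1.76, 0.704 and 1.18 against 3.18, 1.10, 1.11 and 5.04 CPM.

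The log2 fold changes were 3.85 (SE 1.13) for Cxcl9, 3.27 (SE 0.93) for Cxcl10, 1.05 (SE 0.45) for Cxcl16 and 1.09 (SE 0.52) for Cxcl2, each with an adjusted p of 0.788 in edgeR. Without ACKR2-/- replicates 1 and 4 they were -0.28, 0.28, -0.16 and -0.14. Without the filter on low counts Cxcl9 and Cxcl10 were called at an adjusted p of 0.0325, and over the other alternatives their adjusted p ranged up to 0.997. An exact permutation test of the 4 against 4 samples gave p = 0.229 for Cxcl9 and 0.171 for Cxcl10 (two-sided, smallest possible 0.029).

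Further genes moved with these 2 libraries. Of 12461 genes averaging at least 0.5 CPM, 904 (7.25%) were higher in both than in the other 6 libraries and 631 (5.06%) were lower in both. Of the 11 interferon pathway genes 0 were called between genotypes, with 6 at an unadjusted p under 0.05, and 8 were higher in both libraries, Irf7, Gbp2, Ifit3 and Isg15 among them. Irf7, the interferon-induced transcription factor, was at 84.0 and 258 CPM in them and at 13.4 to 30.1 CPM in the others, and Gbp2 at 112 and 123 CPM against 25.5 to 45.9 CPM. Of 12 NF-kB and early activation genes 5 were higher in both (Rela, Nfkbia, Il1b, Icam1 and Ier3). Markers of other cells were also higher in both: all 5 NK cell markers, which summed to 109 and 147 CPM against 17.4 to 81.6 CPM, and 4 of 5 large peritoneal macrophage markers, whose sums were 1320 and 1739 CPM against 298 to 719 CPM. Marco, a scavenger receptor on the alveolar macrophage list, was at 206 and 311 CPM against 5.85 to 31.6 CPM. T cell markers did not share this, with sums of 264 and 214 CPM against 244 to 487 CPM. Of the 7 SPM markers 0 were higher in both libraries and 3 were lower in both (Ccr2, Irf4 and Retnla). The part of other cells in the Cxcl9, Cxcl10, Cxcl16 and Cxcl2 values was not tested.

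**Figure D3:**
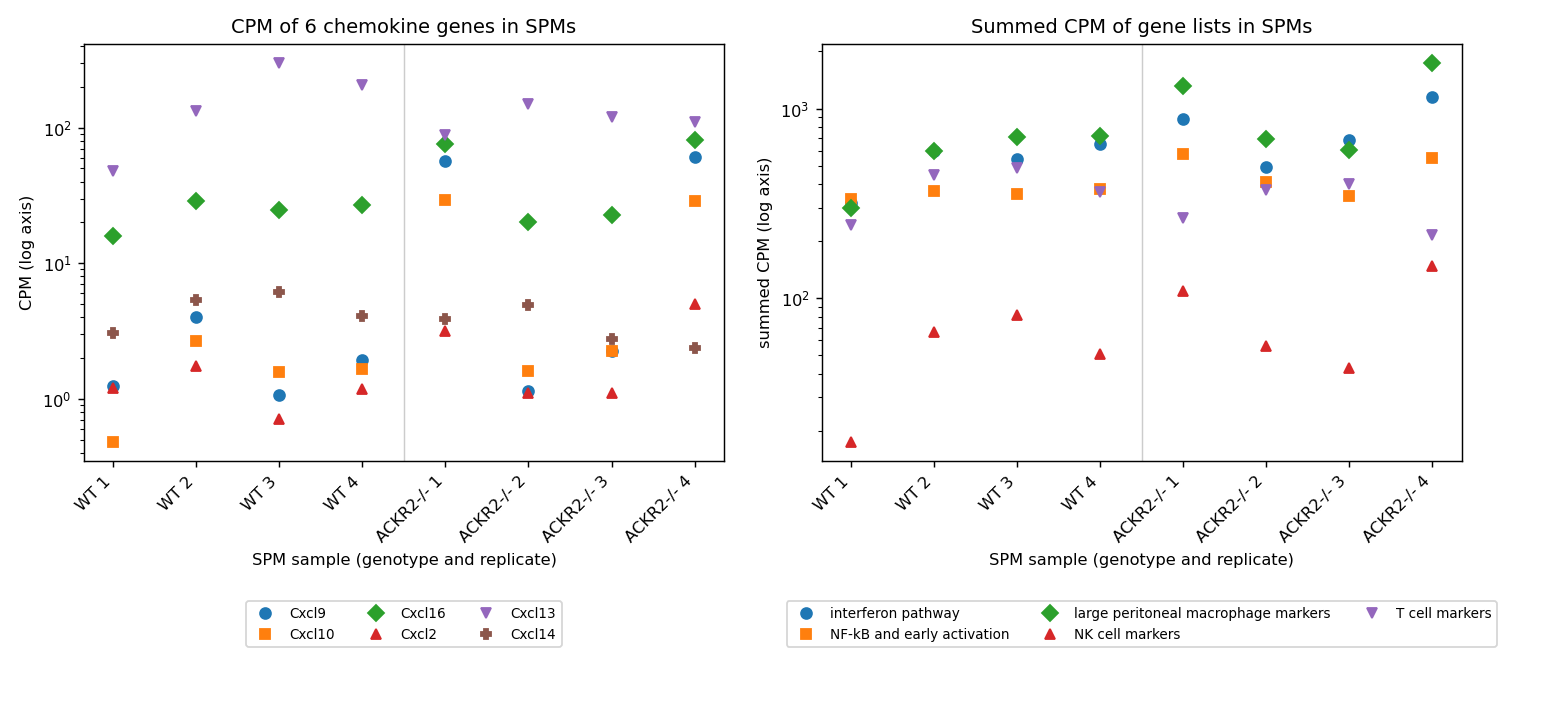
CPM of 6 chemokine genes (left) and summed CPM of 5 gene lists (right) in each of the 8 SPM samples, on log axes, WT left and ACKR2-/- right of the grey line. Cxcl9, Cxcl10, Cxcl16 and Cxcl2 stand high in ACKR2-/- replicates 1 and 4, as do the interferon, large peritoneal macrophage and NK cell lists, while Cxcl13, Cxcl14 and the T cell list do not.

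The constitutive chemokines of SPMs did not share the pattern of replicates 1 and 4. Ccl6 was at 18329, 30374, 29493 and 28082 CPM in WT and 21619, 24316, 16213 and 19954 CPM in ACKR2-/- SPMs, with overlapping ranges and a log2 fold change of -0.37 (SE 0.26, adjusted p = 0.788 in edgeR). Ccl9 averaged 4292 ± 638 and 3306 ± 449 CPM (SD, n = 4; -0.38, SE 0.22), Cxcl13 172 ± 108 and 117 ± 25.2 CPM (-0.56, SE 0.44) and Cxcl14 4.67 ± 1.37 and 3.47 ± 1.13 CPM (-0.43, SE 0.32). Cxcl1 was below the filter, but its 12 reads in all WT and 101 in all ACKR2-/- samples were spread differently. It was at 0.144, 0.258, 0.088 and 0.111 CPM in WT and 0.728, 0.953, 0.18 and 1.32 CPM in ACKR2-/- SPMs, so that 3 of the 4 ACKR2-/- samples, replicate 2 among them, were above all WT samples (exact permutation p = 0.0571, two-sided). Of 8 receptors 4 were tested and 0 called, with 0 at an unadjusted p under 0.05, and the Cxcl16-shedding proteases Adam10 (-0.83, SE 0.32) and Adam17 (0.02, SE 0.27) were not called (adjusted p = 0.788 and 0.988 in edgeR).

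In lung macrophages all 10 genes were tested and none was called, where 0% of 16824 genes were, and 3 had an unadjusted p under 0.05 (2.97% of all genes). The estimates of 8 genes were below 0 (median log2 fold change -0.96, against -0.04 for all genes). Cxcl13, the B cell attractant, separated the genotypes fully. It was at 25.7, 25.2, 472, 13 and 26.4 CPM in WT and at 9.06, 12.3, 9.24, 6.48 and 5.26 CPM in ACKR2-/- lung macrophages, where 0.226% of all genes had every ACKR2-/- sample below every WT sample. The log2 fold change was -3.73 (SE 0.99, unadjusted p = 0.00299, adjusted p = 0.9999 in edgeR), and the exact permutation test over the 5 against 5 samples gave p = 0.00794, the smallest possible (two-sided, not adjusted over genes). Without WT replicate 3 the fold change was -1.40, and over all samples left out in turn it was -4.02 to -1.40. WT replicate 5, which lacked Ackr2 reads, was at 26.4 CPM, and without it none of the 10 genes was called either.

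Cxcl2 and Cxcl16 had the next smallest p. Cxcl2 was at 519, 585, 1136, 352 and 294 CPM in WT and 304, 226, 349, 88.8 and 217 CPM in ACKR2-/- samples, which overlapped in the lowest WT sample. Its log2 fold change was -1.28 (SE 0.42, adjusted p = 0.9999 in edgeR; exact permutation p = 0.0317, two-sided), and -0.86 to -1.46 with a sample left out. Cxcl16 was at 171, 122, 1131, 95.9 and 110 CPM in WT and 95.2, 93.3, 110.2, 37.6 and 53.5 CPM in ACKR2-/- samples (-2.06, SE 0.70, adjusted p = 0.9999 in edgeR; exact permutation p = 0.0238, two-sided), and the fold change was -0.66 without WT replicate 3. That library was also above the other 9 in Cxcl1, Cxcl9, Cxcl10 and Ccl9 and below them in Ccl6. Its dendritic cell markers summed to 614 CPM against 10.5 to 55.4 CPM, its B cell markers to 1949 CPM against 125 to 670 CPM, and Ccr1 was at 105 CPM against 1.45 to 24.8 CPM. Irf1 and Irf7 were lower there than in any other lung library. Over the genotypes, the summed lung interstitial macrophage markers were 2520 to 13051 CPM in WT and 1260 to 2884 CPM in ACKR2-/- samples, and the summed NK cell markers 174 to 463 and 404 to 2542 CPM. The part of these cells in the chemokine values was not tested.

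The neutrophil attractants Cxcl1 (83.0 ± 39.2 CPM in WT, 50.8 ± 31.9 CPM in ACKR2-/-, SD, n = 5) and Cxcl3 (9.44 ± 4.74 and 7.62 ± 6.07 CPM) overlapped between the genotypes, as did Cxcl10 (96.4 ± 71.4 and 41.7 ± 27.4 CPM). Their log2 fold changes were -0.71 (SE 0.53), -0.31 (SE 0.62) and -1.21 (SE 0.59). Cxcl9 had 0 reads in WT replicate 4, which allows up to 0.118 CPM, and its sign turned from -1.93 to 0.69 without WT replicate 3. Ccl6 (1008 ± 195 and 1250 ± 118 CPM) and Ccl9 (287 ± 93.9 and 323 ± 70.7 CPM) had the only positive estimates, 0.31 (SE 0.17) and 0.17 (SE 0.24). ACKR2-/- replicate 4 was the lowest of all 10 lung libraries in Cxcl1 (8.29 CPM), Cxcl2, Cxcl3, Cxcl10 (9.98 CPM), Cxcl14 and Cxcl16. Among the lung lists, 0 of 7 tested receptors, 0 of 13 NF-kB and early activation genes and 0 of 11 interferon pathway genes were called, with 1, 2 and 0 at an unadjusted p under 0.05.

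Cxcl14, the chemokine of epithelia and stroma, followed the order of the epithelial markers over the lung libraries. It was at 104, 62.3, 44.4, 42.2 and 27.0 CPM in WT replicates 1 to 5, and the summed epithelial markers were 15358, 9683, 8388, 5726 and 370 CPM in the same libraries. In ACKR2-/- replicates 1, 2, 3, 5 and 4 Cxcl14 was at 81.4, 70.2, 34.2, 27.9 and 9.50 CPM and the epithelial sum at 16742, 11336, 6688, 5706 and 232 CPM. Within each genotype the order of the libraries was thus the same for both. Between genotypes Cxcl14 differed by a log2 fold change of -0.33 (SE 0.52, adjusted p = 0.9999 in edgeR). Summed fibroblast markers were also lowest in ACKR2-/- replicate 4 (56.2 CPM) and WT replicate 5 (82.4 CPM) and 201 to 885 CPM elsewhere. Cxcl14 was not alone in this. Spearman's rank correlation with the epithelial markers over the 10 lung libraries, given as a description, was 0.98 for Cxcl14. It was 0.78 for Cxcl1, 0.77 for Cxcl10, 0.69 for Cxcl3 and 0.48 for Cxcl2. For Cxcl16, Cxcl9 and Cxcl13 it was 0.39, 0.26 and 0.19, and for Ccl6 and Ccl9 -0.32 each. The part of epithelial or stromal RNA in Cxcl14 and the other members was not tested.

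Whether the genotype difference itself differed between cell types was tested as an interaction. None of the 10 genes passed, where 0.253% of 17792 genes did for SPMs minus monocytes, 0.152% for lung macrophages minus monocytes and 0.0393% for lung macrophages minus SPMs. Cxcl10 came nearest, with a difference in log2 fold change of 4.34 (SE 1.11, adjusted p = 0.129 in edgeR) for SPMs minus monocytes and -4.49 (SE 1.06, adjusted p = 0.236) for lung macrophages minus SPMs, and DESeq2 called both (adjusted p = 0.0232 and 0.0291). Without ACKR2-/- SPM replicates 1 and 4 the differences were 1.36 and -1.52. Cxcl9 gave 5.83 (SE 1.70, adjusted p = 0.237) and -5.77 (SE 1.60, adjusted p = 0.461) in edgeR. These contrasts share samples, so the values are not independent of each other.

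**Figure D4:**
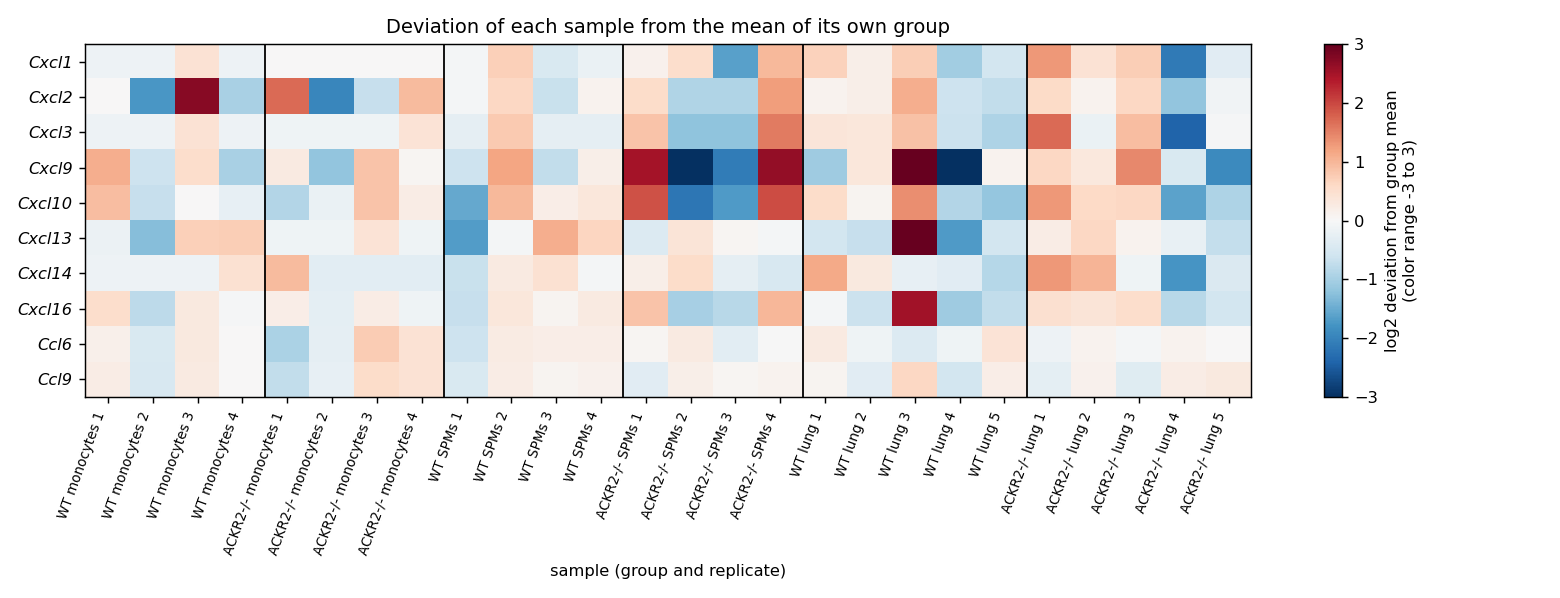
Log2 deviation of each sample from the mean of its own group, for 10 genes (rows) and 26 samples (columns), with group borders as black lines; the color range ends at -3 and 3. Cxcl9, Cxcl10 and Cxcl16 are high together in ACKR2-/- SPM replicates 1 and 4 and in WT lung replicate 3. Ccl6 and Ccl9 stay between -0.94 and 0.76 in all samples, with both ends in ACKR2-/- monocytes.

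Within groups some of the genes varied together. Deviations of log2 CPM from the group means were compared over the 26 samples, which share library depth and the cells sorted with them. Pearson's r, given as a description, was 0.87 for Cxcl9 with Cxcl16, 0.78 for Cxcl9 with Cxcl10, 0.84 for Cxcl1 with Cxcl3 and 0.68 for Ccl6 with Ccl9. That of Ccl6 with Ccl9 was 0.99 over the 8 monocyte samples, 0.69 over the 8 SPM samples and 0.10 over the 10 lung samples. Ccl6 with Cxcl1 gave 0.04 and Ccl6 with Cxcl9 gave 0.01. The genes with the most similar deviations differed between members. They were Ifi205, an interferon-induced gene, for Cxcl10 (0.92), Ccl3, another inflammatory chemokine, for Cxcl2 (0.83), Cxcl16 for Cxcl9 (0.87) and Ccl4 for Cxcl16 (0.90). For Cxcl13 the nearest was H2-DMb1 of the MHC class II peptide loading complex (0.87), for Ccl6 Fxyd5 (0.93) and Lyz2, the myeloid lysozyme (0.89), and for Ccl9 the lysosomal protease gene Lgmn (0.84). For Cxcl1, Cxcl3 and Cxcl14 they were Grb14 (0.85), Flrt3 (0.90) and Snhg18 (0.92).

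The positions of the genes equal those in GENCODE M21 (GRCm38). Cxcl10, at chr5:92346638-92348889 on the minus strand, shares 133 of its 2252 exonic bases with Art3 on the other strand, which had at most 20 reads in any monocyte or SPM sample and 123 to 611 in lung samples. Cxcl16, at chr11:70453983-70459984 on the minus strand, shares 552 of 3021 exonic bases with Zmynd15, which had up to 36 reads in SPMs and 114 to 5853 in lung samples. Whether the counting used strand is not stated, and without it the reads of these antisense pairs cannot be told apart. The other members share no exonic base with another gene.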

How the data were processed

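Per the submitters' processing notes, the authors aligned reads to mm10 with HISAT2 2.0.5 and counted them with featureCounts 1.5.0-p3, and the files deposited hold raw counts per gene and sample. The lung table also holds 5 summary lines (56.3% of its counts), of a form other counters write, which were left out. RNA was amplified with a SMARTer kit after sorting. Its strand setting in counting is not stated.

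Counts were tested with edgeR 4.0.16 (R 4.3.3): TMM scaling, filterByExpr (minimum count 10, total 15), quasi-likelihood test, Benjamini-Hochberg adjustment over all tested genes. Genotypes were compared within each cell type. Cell types and interactions came from a fit of all 26 samples over genes listed in all tables. Exact permutation tests compared CPM of single genes. The monocyte, SPM and lung samples were sequenced or tabulated separately, so cell type, table and tissue handling cannot be told apart. Samples of a group are separate pools or samples, and libraries differed beyond sampling noise. Alternatives were DESeq2 1.42.0, RLE scaling, other filters, a robust fit, no fold limit, a replicate block and leaving out samples. Leaving out ACKR2-/- SPM replicates 1 and 4 together was chosen after seeing the data. Scripts were tested on simulated data. All 10 members are named, and genes of the lists where they were called or stand beside a member's result. Members and lists were chosen with earlier results of these data known, and the motifs after a first search with longer forms. Intervals cover counting error only.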

Additional observations from a re-analysis of the deposited data

Results flagged for a closer look

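In 11 of 60 combinations of a gene and a group, 1 sample lay far from the others by Dixon's test at the 95% level. Only 4 of these had at least 20 reads in the group. The rate of about 1 of 20 that chance would flag cannot be applied to groups with reads in 1 library only. WT lung macrophage replicate 3 gave 3 of them, with Cxcl13 at 471.9 CPM, Cxcl16 at 1130.9 CPM and Cxcl9 at 19.5 CPM, and the same library had the high MHC class II sum given above. WT monocyte replicate 3 stood out in Cxcl2 at 6.57 CPM against 0.187 to 0.912 CPM in the other WT monocyte samples. The remaining 7 rest on 1 to 3 reads in a single library with none in the others of the group, where the test flags any value above 0. These were Cxcl1, Cxcl3 and Cxcl14 in WT monocytes (0.0556, 0.0556 and 0.0559 CPM), Cxcl3, Cxcl13 and Cxcl14 in ACKR2-/- monocytes (0.0531, 0.0526 and 0.161 CPM) and Cxcl3 in WT SPMs (0.0516 CPM).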

How the results depend on the processing

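None of the 10 genes was called between genotypes in the analysis as designed, and the calls that alternatives added were few. In monocytes Cxcl9 was the 1 gene called by DESeq2, without the filter and with a replicate block. In SPMs 2 were called without the filter. For the interactions, 1 gene was called for SPMs minus monocytes by DESeq2 and without the filter, 0 to 1 with a sample left out, in each case Cxcl10. For lung macrophages minus SPMs, 1 was called by DESeq2 (Cxcl10) and 1, another gene, with the replicate block (Cxcl1, adjusted p = 0.0393 against 0.571 as designed). In lung macrophages none was called under any alternative, but DESeq2 gave no adjusted p for Cxcl9, Cxcl13 and Cxcl16. The replicate numbers were not taken to pair the samples, since in no comparison did every same-numbered pair deviate together (correlation over 0.1).

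Over all genes, the calls between genotypes in monocytes were 168 as designed, 494 by DESeq2, 346 without the filter and 76 to 413 with a sample left out. In SPMs they were 6, 33 by DESeq2, 52 without the filter and 3 to 8 with a sample left out, and in lung macrophages 0 and 20 by DESeq2. For SPMs minus monocytes they were 45, 138 by DESeq2, 22 without ACKR2-/- SPM replicates 1 and 4, and 29 to 58 with a sample left out. For lung macrophages minus monocytes they were 27, 109 by DESeq2, 42 without the filter and 13 to 53 with a sample left out. For lung macrophages minus SPMs they were 7, 23 by DESeq2, 4 without the 2 SPM replicates and 4 to 7 with a sample left out. The cause was not tested.

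Directions of the fitted genotype and cell type differences turned as follows, and interactions with an unadjusted p of 0.05 or more are not listed. With the replicate block, Cxcl2 in monocytes was 0.34 and Cxcl9 in WT lung macrophages against monocytes -0.14. Without ACKR2-/- SPM replicates 1 and 4 the genotype differences in SPMs were -0.14 for Cxcl2, -0.28 for Cxcl9 and -0.16 for Cxcl16, Cxcl10 was -2.53 and Cxcl3 -1.56 in ACKR2-/- SPMs against monocytes, and Cxcl16 was 0.61 in ACKR2-/- lung macrophages against SPMs. With a sample left out, the genotype difference ranged from -1.10 to 1.69 for Cxcl2 and -0.27 to 0.15 for Cxcl16 in monocytes, and from -2.49 to 0.69 for Cxcl9 and -0.66 to 0.04 for Cxcl14 in lung macrophages. The WT differences of Cxcl9 ranged from -0.35 to 0.66 for SPMs against monocytes, -2.48 to 0.52 for lung macrophages against monocytes and -2.69 to 0.41 for lung macrophages against SPMs. In ACKR2-/- samples Cxcl10 ranged from -0.06 to 0.83 for SPMs against monocytes and -0.18 to 0.72 for lung macrophages against SPMs, and for lung macrophages against monocytes Cxcl9 ranged from -0.37 to 0.49 and Ccl6 from -0.22 to 0.30. Fitted differences of Cxcl1, Cxcl3, Cxcl13 and Cxcl14 against monocytes, which rest on 0 to 14 monocyte reads, are not otherwise listed. Depth limits Cxcl1, Cxcl3, Cxcl13 and Cxcl14 in monocytes and Cxcl1 and Cxcl3 in SPMs, where a few reads decide each value.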
